A study of Sus scrofa with 12 samples.

Results

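Genes of the major histocompatibility complex (MHC, called SLA in the pig) and of antigen processing were followed in the RNA of 12 whole left ovaries. Each ovary came from a gilt, a sow before her first litter. The members were every gene whose name in the deposited table begins with SLA- and 20 named genes of antigen processing, each taken at its row with the highest mean count. Of the 20 named genes 13 had a row of their own, and 5 SLA symbols were present, which gave 18 members among 29150 loci. By role, 2 were class I molecules (B2M and the row named SLA-5), 5 class II molecules (SLA-DMA, SLA-DMB, SLA-DOA, SLA-DQB1 and a row named CD74), 8 processing genes (TAP1, PSMB8, PSMB9, ERAP1, ERAP2, CALR, CANX and PDIA3) and 3 transcriptional regulators (CIITA, NLRC5 and RFX5). The other 7 named genes (TAP2, TAPBP, PSMB10, PSME1, PSME2, CTSS and IFI30) had no row under their name alone.

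The ES group held 6 New French Yorkshire gilts recorded with consecutive estrus cycles and slaughtered in the third estrus. In the NES group were 6 gilts of the same breed, each a full sister of an ES gilt, in which no estrus had been recorded. The labels name no treatment, genotype or age at slaughter. The groups differ in cycle stage as well as in the record of estrus.

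MHC class I molecules stand on nearly all nucleated cells and show peptides from inside the cell to CD8 T cells. The peptides are cut by the proteasome, pumped into the endoplasmic reticulum by the TAP transporter, trimmed there and loaded with the help of chaperones, and the heavy chain reaches the surface with beta-2-microglobulin. MHC class II molecules are made mainly by macrophages, dendritic cells and B cells, and show peptides from the endolysosome to CD4 T cells. NLRC5 is the transactivator of class I genes and CIITA that of class II genes, and interferon gamma raises both sets. In a whole ovary, immune cells, vessels, stroma and follicle cells all contribute, and in bulk RNA fewer cells of a type and less RNA per cell cannot be told apart.

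Where a member lies bears on what its value means. The 4 SLA-D members lie on chromosome 7 between 24939676 and 25182954 (build Sscrofa11.1), with TAP1 (25062771 to 25072038), PSMB8 (25053132 to 25073046) and PSMB9 (25071712 to 25077233) inside the same class II region. The PSMB8 locus spans TAP1 and 32.0% of TAP2 on the same strand, and TAP1 overlaps PSMB9 on the other strand. The SLA-DQB1 locus overlaps that of its partner SLA-DQA on the other strand. Reads there could be shared, and whether counting used the strand is not stated in the labels. By span, the named gene makes up 16.1% of the PSMB8 locus and 20.8% of the SLA-DQB1 locus. The row of RFX5 covers 56.5% of its gene. B2M (chromosome 1, 126834580 to 126872431) holds 1 RefSeq copy of the gene whole and 52.3% of the second, so its value is for both copies. The row named SLA-5 (chromosome 7, 22824690 to 22890075) is on the minus strand, opposite to the class I genes, at a mean of 67.3 counts. The row named CD74 (chromosome 2, 151413271 to 151413716) is an unstranded stretch of 446 bases that lies 3347 bases from the RefSeq CD74 gene, at a mean of 58.2 counts. Neither of these rows can stand for the gene it is named after.

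For this reason 14 further loci were read beside the members. They were chosen after the table was seen and lie outside the rule. A plus-strand locus, here the SLA class I block (chromosome 7, 22823841 to 22962547), joins SLA-1, SLA-2, SLA-3 and SLA-5. SLA-8 has a locus, and SLA-6 and SLA-7 share another. The class II chains SLA-DRA, SLA-DRB1, SLA-DQA and SLA-DOB were found under human symbols, Ensembl identifiers or the table's description column, and TAP2 by its position. CD74, CTSS, IFI30, PSMB10, PSME1 and TAPBP lie in loci joined with neighbours. RPS14, a ribosomal protein gene, shares the locus of CD74, so these values cannot be given to the member alone. No value is given for PSME2. SLA genes are near-identical and differ between pigs, and how reads of other alleles were placed on the reference was not tested.

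Each library held 58140547 to 68961955 counts, and levels are given as CPM, counts scaled to library size with TMM factors. Library ES3 stands apart from the others. All 15 measured macrophage and monocyte markers were highest there, and their summed level was 1535 CPM, against 129 to 188 CPM in the other ES libraries and 105 to 245 CPM in NES. The 4 leukocyte markers summed to 263 CPM in ES3, 28.8 to 49.7 CPM in the other ES libraries and 17.7 to 45.3 CPM in NES. The summed granulosa markers were lowest in ES3 (422 CPM, against 995 to 5407 CPM elsewhere), although they were present in every library. Of these markers CYP19A1, INHBA and INHBB were lowest in ES4 instead. Values are therefore given with and without ES3.

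**Figure D1:**
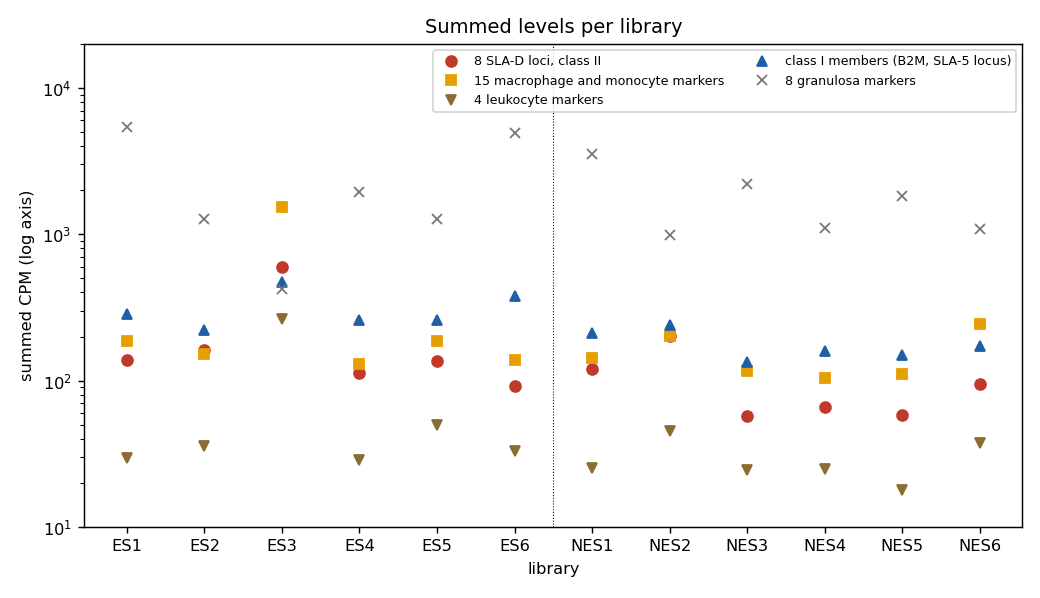
Summed level in CPM (log axis) of class II loci, class I members and 3 marker lists in each of the 12 libraries, 1 symbol per list. ES3 holds the highest macrophage, leukocyte and SLA-D sums (1535, 263 and 595 CPM) and the lowest granulosa sum.

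All 18 members passed the expression filter, a mean FPKM of at least 0.5, as did 20421 loci in all. None of the 18 was called by edgeR's quasi-likelihood test at a Benjamini-Hochberg adjusted p under 0.05, where 0.945% of all tested loci were called and 0.152% were called higher in ES. At an unadjusted p under 0.05, 9 of 18 members were higher in ES and 0 lower, beside 9.5% of all loci tested that were higher (1941) and 1387 loci that were lower. SLA-DOA, among the 9, passed the filter only through ES3. DESeq2 called 2 members, B2M and NLRC5, both higher in ES, where it called 465 loci higher and 600 lower among all tested. On simulated counts, which held no outlying library such as ES3, DESeq2 gave 42 false calls and edgeR 1. Without ES3, 5 of the 18 members were higher at an unadjusted p under 0.05 (background 8.11%), and CALR was lower. The 4 that no longer had such a p were CIITA, SLA-DMA, SLA-DMB and SLA-DOA.

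The medians of the roles differed, and leaving out ES3 moved that of class II the most. The median log2 difference, ES minus NES, was 1.31 for class II molecules, 0.82 for regulators, 0.64 for class I molecules and 0.24 for processing genes, beside 0.043 for all loci tested. Without ES3 these medians were 0.30, 0.25, 0.40 and 0.20, beside 0.021. The class I median rests on only 2 rows, B2M and the row named SLA-5. They had 0.82 and 0.46, and 0.66 and 0.14 without ES3. The direction was positive in 13 of 18 members with or without ES3, where 56.2% and 53.5% of all loci were positive. No member had all 6 ES libraries above all 6 NES libraries, which held for 0.509% of all loci.

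**Figure D2:**
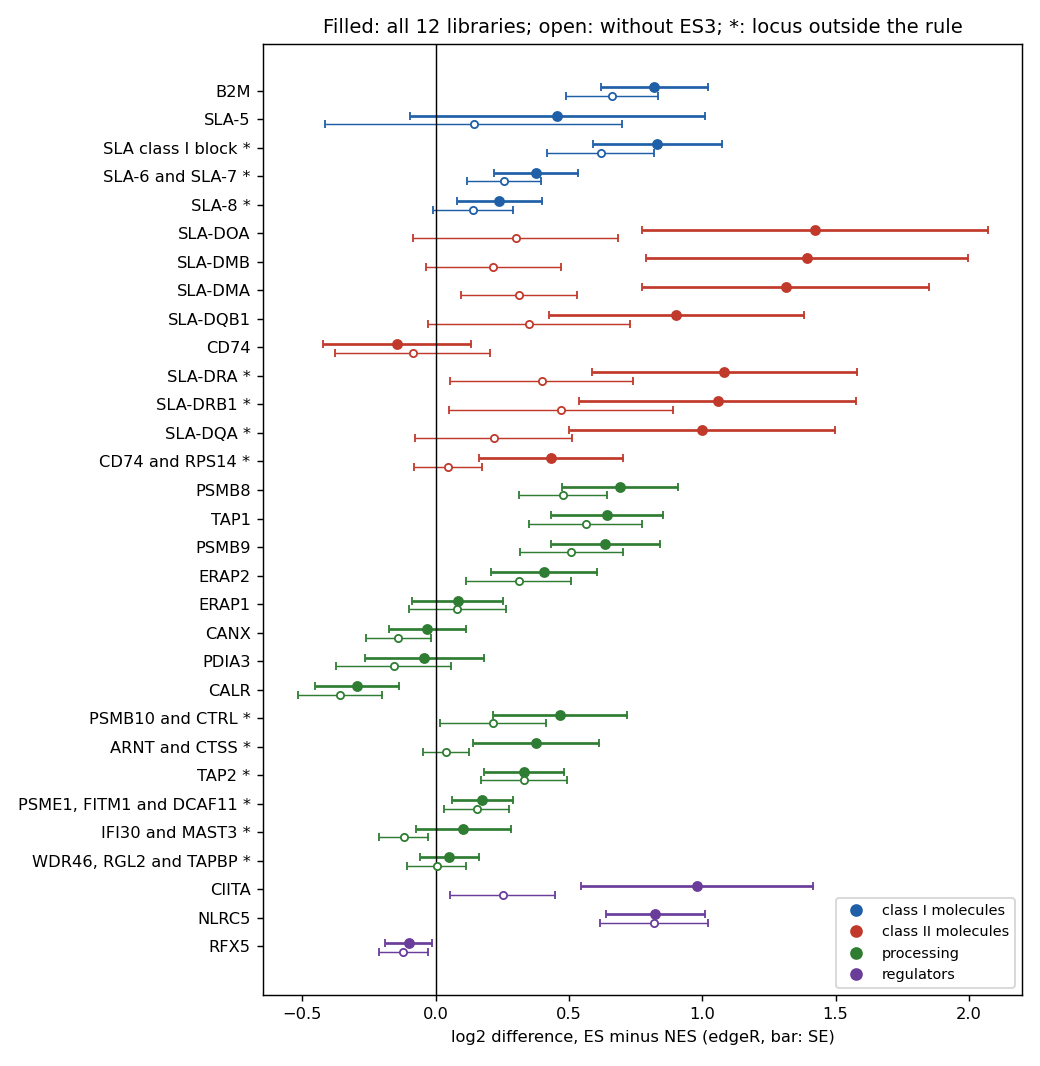
Log2 difference, ES minus NES, of each member and each locus outside the rule (star), from edgeR with its SE, with all 12 libraries (filled) and without ES3 (open). The class II points move from between 0.90 and 1.42 to between 0.22 and 0.47 for the SLA-D loci, while NLRC5 stays at 0.82.

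No class I locus was called by edgeR, and B2M had the most ES libraries above all NES libraries among them. B2M, the light chain of every class I molecule, had its lowest, median and highest values at 223, 273 and 471 CPM in ES and at 132, 166 and 240 CPM in NES. Of the 6 ES libraries 5 lay above every NES library, with ES2 below NES2 (223 and 240 CPM). The means were 313 ± 93.2 in ES against 177 ± 40.7 CPM in NES (SD, 6 libraries each), a log2 difference of 0.82 ± 0.20 (SE; edgeR adjusted p = 0.0705). Without ES3 the difference was 0.66 ± 0.17 (adjusted p = 0.0933).

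The SLA class I block, which holds the heavy chain genes SLA-1, SLA-2 and SLA-3, ran from 406 to 894 CPM in ES (median 477) and from 207 to 497 CPM in NES (median 265). NES2 was the one NES library inside the range of ES. The log2 difference was 0.83 ± 0.24 (adjusted p = 0.121), and 0.62 ± 0.20 without ES3 (adjusted p = 0.167). The other class I loci had smaller fitted differences. SLA-6 and SLA-7 together averaged 32.0 ± 6.54 in ES against 24.6 ± 4.51 CPM in NES (log2 0.38 ± 0.16, adjusted p = 0.262, and 0.26 without ES3), and SLA-8 averaged 11.7 ± 2.19 and 9.88 ± 1.80 CPM (log2 0.24 ± 0.16, adjusted p = 0.492, and 0.14 without ES3). The minus-strand row named SLA-5 ran from 0.24 to 2.45 CPM in ES (median 1.02) and from 0.51 to 1.57 CPM in NES (median 0.69), with 3 ES libraries above and 3 below every NES library.

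NLRC5, the transactivator of class I genes, had the smallest adjusted p of the members. Its ES libraries ran from 23.6 to 47.4 CPM (median 38.5) and its NES libraries from 14.8 to 29.2 CPM (median 21.2). Of the 6 ES libraries 5 exceeded every NES library, and ES4 was the exception. The means were 37.3 ± 7.94 and 21.1 ± 4.99 CPM, a log2 difference of 0.82 ± 0.19 (adjusted p = 0.0567). ES3 was not the highest ES library for this gene (37.3 CPM), and the difference without it was 0.82 ± 0.20 (adjusted p = 0.0827). Without both ES3 and ES6 it was 0.79 (adjusted p = 0.134).

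**Figure D3:**
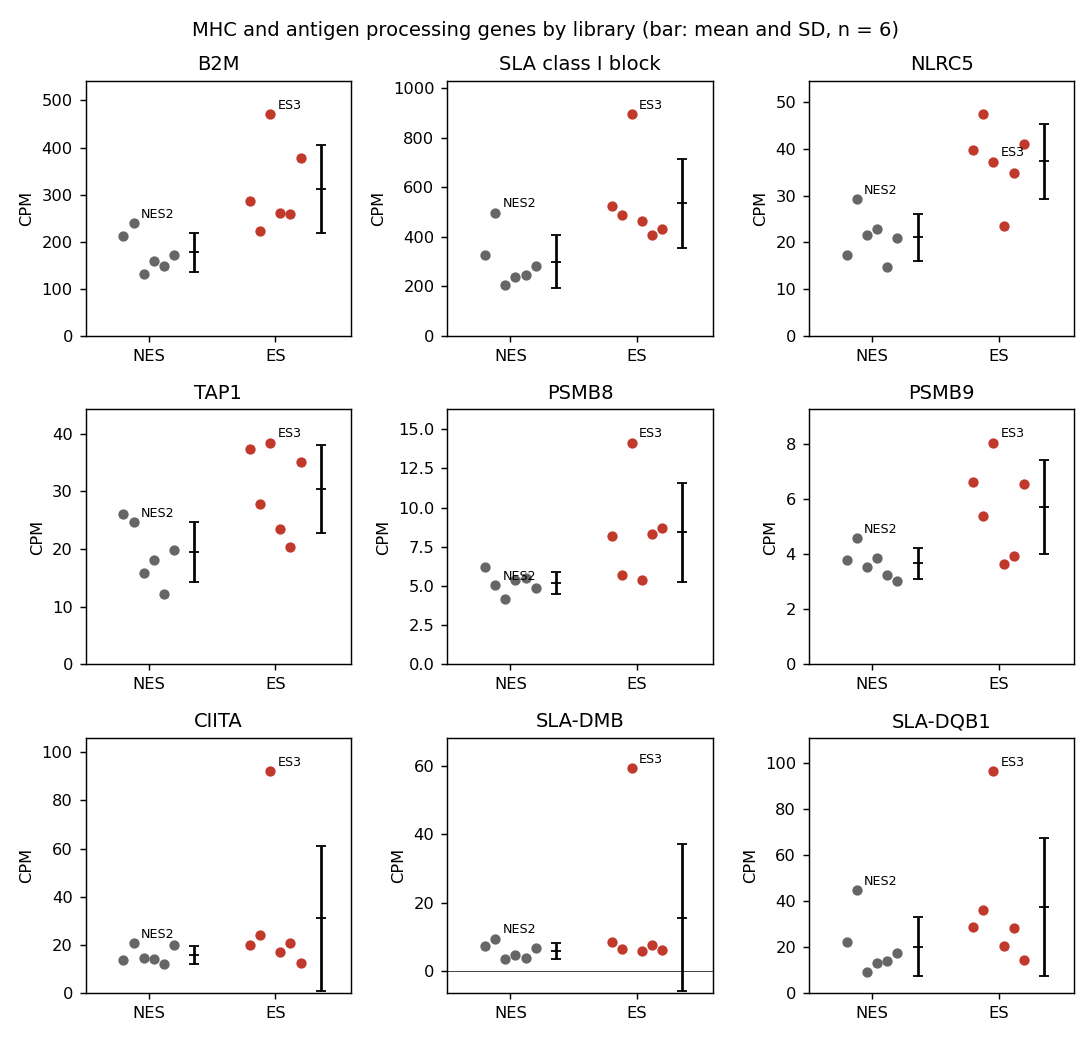
CPM of 8 members and the SLA class I block in each library, NES in grey and ES in red, with the mean and SD of 6 libraries as a bar. In B2M and NLRC5 5 of 6 ES points lie above every NES point, while in CIITA and SLA-DMB the highest ES point, ES3, stands far above the other 5.

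Among the genes that make and move class I peptides, TAP1, PSMB8 and PSMB9, which interferon gamma is known to induce, each had an unadjusted p under 0.05 with higher values in ES, and the chaperones CALR, CANX and PDIA3 had differences below 0. TAP1, a subunit of the peptide transporter, ran from 20.4 to 38.4 CPM in ES (median 31.4) and from 12.3 to 26.0 CPM in NES (median 19.0). Here 4 of 6 ES libraries lay above every NES library, and the log2 difference was 0.64 ± 0.21 (adjusted p = 0.164), or 0.56 without ES3. TAP2, the other subunit, outside the rule, averaged 22.8 ± 5.33 in ES against 18.1 ± 1.89 CPM in NES (log2 0.33 ± 0.15, adjusted p = 0.298). Its difference without ES3 was again 0.33.

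PSMB8 and PSMB9 are catalytic subunits of the immunoproteasome, the form of the proteasome that favours peptides fit for class I. PSMB8 ran from 5.41 to 14.1 CPM in ES (median 8.26) and from 4.17 to 6.25 CPM in NES (median 5.23), with a log2 difference of 0.69 ± 0.22 (adjusted p = 0.150) and of 0.48 without ES3. PSMB9 ran from 3.66 to 8.03 CPM in ES (median 5.95) and from 3.02 to 4.58 CPM in NES (median 3.64), with 0.64 ± 0.20 (adjusted p = 0.155) and 0.51 without ES3. For each of them 4 of 6 ES libraries exceeded every NES library. The locus of PSMB10, the third such subunit, joined with CTRL, had 0.47 ± 0.25 (adjusted p = 0.382), and 0.22 without ES3.

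PSMB9 replaces the standard subunit PSMB6, and the ratio of their deposited FPKM was compared between libraries. FPKM depends on the length of each assembled locus, so the ratio does not give the amount of one subunit against the other. In CPM PSMB9 averaged 5.69 in ES and 3.66 in NES, and PSMB6 averaged 11.15 and 12.82. The FPKM ratio was 0.91, 1.26, 1.41, 0.86, 1.00 and 1.29 in ES1 to ES6 and 0.49, 0.93, 0.57, 0.61, 0.58 and 0.67 in NES1 to NES6. All 6 ES ratios lay above the NES median, and 4 above every NES ratio, with ES1 and ES4 below NES2. The means were 1.12 ± 0.23 and 0.64 ± 0.15 (SD, n = 6 each), given as a description with no test. For PSMB6 itself the log2 difference was -0.20 (adjusted p = 0.616). The matching ratios for PSMB8 and PSMB10 could not be formed, because PSMB5 and PSMB10 have no row of their own here.

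The trimming genes ERAP1 and ERAP2 had smaller fitted differences. ERAP2, an aminopeptidase that shortens peptides in the endoplasmic reticulum, averaged 12.5 ± 3.60 in ES against 9.46 ± 1.66 CPM in NES (log2 0.41 ± 0.20, adjusted p = 0.333). Its relative ERAP1 averaged 24.4 ± 5.72 and 23.0 ± 2.96 CPM (log2 0.08 ± 0.17, adjusted p = 0.855). ES2 was low in ERAP1, at 13.2 CPM against 24.1 to 28.5 CPM in the other ES libraries. Limma on log2 FPKM placed ERAP1 on the other side of 0 (-0.042 to -0.028).

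The chaperones of the endoplasmic reticulum serve most secreted proteins as well as class I. CALR, calreticulin, ran from 97.0 to 155 CPM in ES and from 125 to 189 CPM in NES, with a log2 difference of -0.29 ± 0.16 (adjusted p = 0.375), and of -0.36 without ES3. CANX, calnexin, had -0.03 ± 0.14 (adjusted p = 0.943), with 127.4 to 220.9 in ES against 142.5 to 220.5 CPM in NES. PDIA3, the disulfide isomerase of the loading complex, had -0.04 ± 0.22 (adjusted p = 0.949), with 50.9 to 123 in ES against 70.6 to 138 CPM in NES. The joined loci of TAPBP, which bridges class I to TAP, and PSME1, a subunit of the proteasome activator PA28, had 0.05 ± 0.11 (adjusted p = 0.857) and 0.18 ± 0.12 (adjusted p = 0.481).

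Class II genes showed the largest fitted differences, and ES3 accounts for most of their size. SLA-DMA and SLA-DMB form the molecule that exchanges peptides on class II. SLA-DMB was at 59.2 CPM in ES3, 5.85 to 8.53 CPM in the other 5 ES libraries and 3.60 to 9.57 CPM in NES. Without ES3 its ES values thus lay within the NES range. The log2 difference was 1.39 ± 0.60 (adjusted p = 0.276) with ES3 and 0.22 ± 0.25 (adjusted p = 0.767) without it.

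SLA-DMA was at 37.6 CPM in ES3, 4.62 to 7.41 CPM in the other ES libraries and 3.21 to 6.54 CPM in NES (log2 1.31 ± 0.54, adjusted p = 0.252, and 0.31 ± 0.22, adjusted p = 0.569, without ES3). SLA-DOA, a chain of the molecule that restrains SLA-DM, was at 10.9 CPM in ES3, 0.75 to 1.99 CPM in the other ES libraries and 0.50 to 1.90 CPM in NES (log2 1.42 ± 0.65, adjusted p = 0.299, and 0.30 without ES3). It passed the expression filter through ES3: its mean FPKM was 0.53 with that library and 0.32 without it. SLA-DQB1, a chain of the peptide-presenting SLA-DQ, was at 96.3 CPM in ES3, 14.2 to 36.2 CPM in the other ES libraries and 9.12 to 44.5 CPM in NES (log2 0.90 ± 0.48, adjusted p = 0.372, and 0.35 without ES3).

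The class II chains outside the rule showed the same libraries high. SLA-DRA was at 123 CPM in ES3, 21.3 to 32.0 CPM in the other ES libraries and 11.4 to 45.1 CPM in NES (log2 1.08 ± 0.50, adjusted p = 0.304, and 0.40 without ES3). SLA-DQA, the partner of SLA-DQB1, had a log2 difference of 1.00 (0.22 without ES3) and SLA-DRB1, the partner of SLA-DRA, 1.06 (0.47 without ES3). Of the 8 SLA-D loci 7 were highest in ES3, and all 8 had NES2 as the highest NES library. SLA-DOB was the locus not highest in ES3, at 1.48 to 4.27 CPM in ES with ES1 highest and 1.39 to 2.84 CPM in NES, and was under the filter. Together the 8 loci summed to 595 CPM in ES3, 91.2 to 162 CPM in the other ES libraries and 57.3 to 202 CPM in NES. ES3 was also the library with the macrophage and leukocyte sums given above, and NES2 had the highest leukocyte sum of NES (45.3 CPM). The highest macrophage sum of NES was in NES6 (245 CPM, against 201 CPM in NES2), where the SLA-D sum was 94.5 CPM. The part of these cells in the class II values was not tested.

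CIITA, the transactivator of class II genes, followed the same libraries: 92.1 CPM in ES3, 12.5 to 24.1 CPM in the other ES libraries and 11.9 to 20.7 CPM in NES. Its log2 difference was 0.98 ± 0.43 (adjusted p = 0.289), and 0.25 ± 0.20 (adjusted p = 0.622) without ES3. RFX5, a DNA-binding factor at class I and class II promoters that acts in many cell types, varied little. It ran from 19.4 to 23.2 CPM in ES and from 21.8 to 25.6 CPM in NES (log2 -0.10 ± 0.09, adjusted p = 0.612).

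CD74, the invariant chain that guards new class II molecules, lies in a locus joined with RPS14, of which it covers 22.8%, so the value is for the joined locus. That locus was at 509 CPM in ES3, 146 to 199 CPM in the other ES libraries and 146 to 221 CPM in NES (log2 0.43 ± 0.27, adjusted p = 0.459, and 0.05 without ES3). The row named CD74 itself was at 0.57 to 1.34 in ES against 0.70 to 1.52 CPM in NES (log2 -0.14 ± 0.28, adjusted p = 0.840). ES3 was not high in that row (0.68 CPM). The joined loci of CTSS, a protease that degrades the invariant chain, and IFI30, a thiol reductase of the lysosome, were also highest in ES3, at 469 and 208 CPM against at most 197 and 136 CPM elsewhere. Without ES3 their log2 differences were 0.04 and -0.12.

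In deposited FPKM, which depends on the length of the assembled locus, the chaperones CALR and PDIA3 led. CALR averaged 48.2 and PDIA3 47.0 FPKM over the 12 libraries, followed by B2M (18.5), CANX (17.2), SLA-DRA (16.7) and the class I block (14.6). The 2 chaperones overlap in their ranges (33.9 to 68.97 and 26.0 to 76.2 FPKM), and B2M (10.3 to 35.0 FPKM), CANX, SLA-DRA and the block overlap as well. The transactivators were low in this measure, NLRC5 at 2.12 and CIITA at 1.98 FPKM. The counts and FPKM of B2M imply a locus length of 13134 bases, far longer than a B2M messenger RNA, so its FPKM understates it beside genes with compact loci such as PDIA3 (1916 bases). Implied lengths were also long for the class I block (28347 bases), NLRC5 (13683) and CIITA (11710), beside 2887 for CALR. Their FPKM ranks depend on these lengths. In CPM the class I block, which joins several genes, averaged 534.5 in ES and 300.3 in NES, and CALR averaged 125 and 153.

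**Figure D4:**
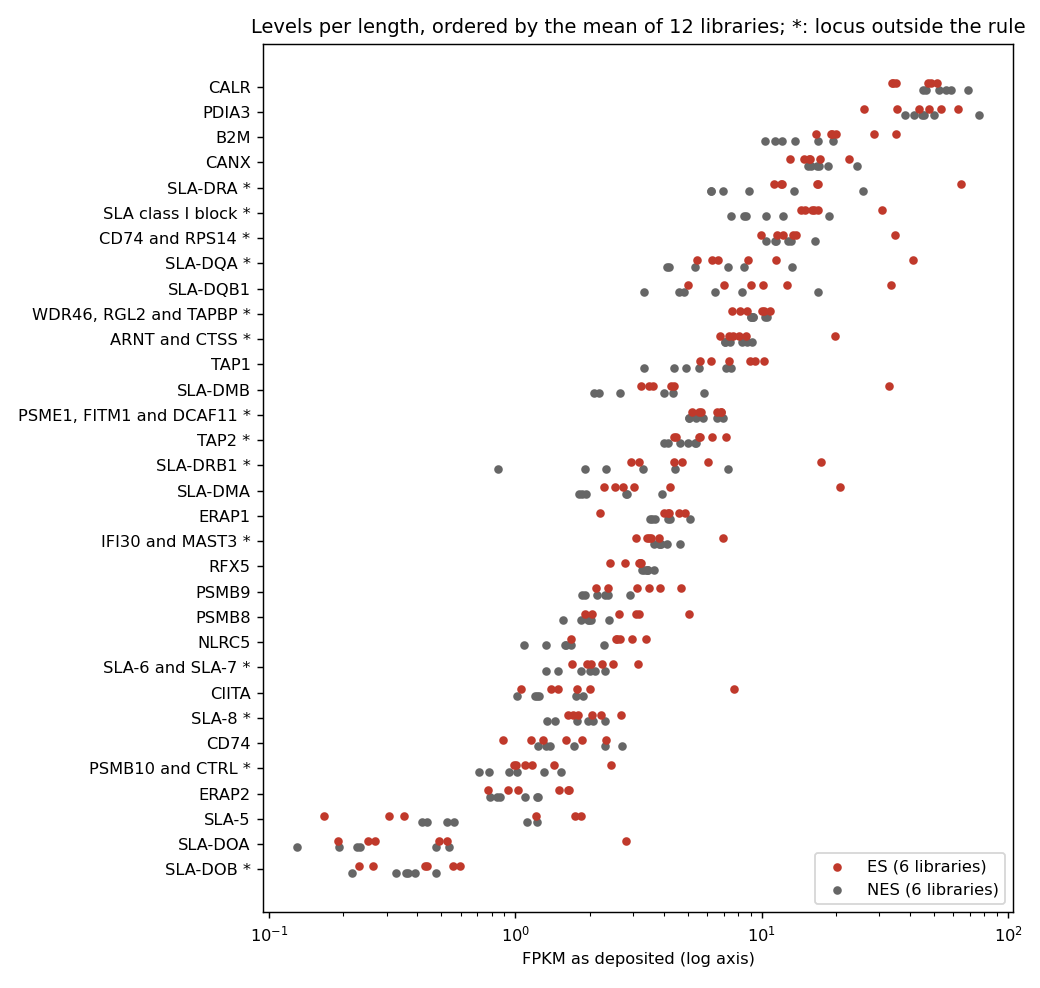
Deposited FPKM (log axis) of each member and each locus outside the rule (star) in every library, NES in grey and ES in red, ordered by the mean of 12 libraries. CALR and PDIA3 lead at 48.2 and 47.0 FPKM, and 1 ES point, ES3, lies to the right of the rest in most class II rows.

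The rest of the pathway was read from fixed lists, whose genes gave no call over all loci. Of 14 standard proteasome genes 0 had an unadjusted p under 0.05, with a median log2 difference of 0.044 (PSME4, a proteasome activator, 0.38; PSMA2 0.13; PSMA3 -0.16). Of 9 other trimming and loading genes 0 had such a p either (median 0.023), with the peptidase TPP2 at 0.20, the translocon subunit SEC61A1 at 0.26 (0.12 without ES3) and the glucosidase GANAB at -0.19. Of the class I-like molecules HFE had 0.56 and MR1 0.11, which were 0.13 and -0.14 without ES3, and 2 others lay under the filter.

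Genes of interferon gamma signalling had positive differences in 7 of 8 tested, beside 56.2% of all loci. Of the 8 genes 5 had an unadjusted p under 0.05, all higher in ES (9.5% of all loci), and 3 without ES3 (8.11% of all loci). Their median was 0.50, and 0.41 without ES3. GBP1, a guanylate-binding protein that interferon gamma induces, had 0.69 (adjusted p = 0.119), and 0.71 without ES3. JAK1, a receptor kinase, had 0.38 (adjusted p = 0.173), and 0.39 without ES3. IFNG itself was at 0 in most ES libraries and at most 0.152 CPM in any, where the 3 counts that a count of 0 allows equal 0.0435 to 0.0516 CPM.

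The 12 tested transcription factors of MHC genes had a median log2 difference of 0.15 (0.016 without ES3). Of these, 3 were higher in ES at an unadjusted p under 0.05 (9.5% of all loci), and 3 without ES3 (8.11% of all loci). Among these were IRF8, a factor of myeloid and B cells (1.44, adjusted p = 0.153, and 0.62 without ES3), and IRF1, an interferon-induced activator of class I genes (0.51, adjusted p = 0.190, and 0.38 without ES3). RFXAP and RFXANK, the partners of RFX5, had -0.078 and 0.032. SPI1, also in the list, passed the filter only through ES3, with a mean FPKM of 0.70 with that library and 0.39 without it.

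The endolysosomal list holds proteases that prepare class II peptides, the ubiquitin ligases MARCHF1 and MARCH8 and the membrane proteins CD63 and LAMP1. It was highest in ES3 for 8 of 10 genes, all but CTSL and MARCH8. Of the 10 genes 5 were higher in ES at an unadjusted p under 0.05 (9.5% of all loci), and 3 without ES3 (8.11% of all loci). The 3 were CTSB, CTSL and MARCH8, and of these only CTSB was among the 5. The median was 1.41, and 0.30 without ES3. The cathepsins CTSB, CTSD and CTSH had 1.31, 1.99 and 1.71 (adjusted p = 0.192, 0.221 and 0.220), and 0.60, 0.23 and 0.33 without ES3. CTSD stood at 2423 CPM in ES3 and its ES median was 180.5 CPM.

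Markers of other cells were measured in the same libraries. The T and NK cell list of 11 genes summed to 65.0 CPM in ES3, 16.5 to 35.3 CPM in the other ES libraries and 14.4 to 22.05 CPM in NES, and 5 of its 7 tested genes were higher at an unadjusted p under 0.05 (9.5% of all loci), or 3 without ES3 (8.11% of all loci). Their median log2 difference was 1.02, and 0.63 without ES3. CD4, among the 5 and among the 3 without ES3, passed the filter only through ES3. Its mean FPKM was 0.58 with that library and 0.42 without it. Within ES3 the list's largest values were NKG7, PRF1 and IL7R (18.8, 17.1 and 11.8 CPM), all highest there, as were CD4 and CCL5. CD3D, CD3E, CD2, CD8A, ZAP70 and GZMB were highest in ES5 instead, with CD8A at 6.46 CPM there and 1.63 CPM in ES3. The B cell and plasma cell list summed to 17.6 CPM in ES3, 3.94 to 13.96 CPM in the other ES libraries and 3.87 to 6.21 CPM in NES, with CD22 and BANK1 highest in ES3 (10.1 and 4.29 CPM). MS4A1, a defining B cell gene, was listed at 0 in ES3, as in ES1, ES6 and every NES library. Of the dendritic cell list XCR1 and FLT3 were at 1.56 and 2.46 CPM in ES3, and CLEC9A and FCER1A at 0.095 and 0.71 CPM. The sum of that list follows CD83, which was at 526 CPM in ES1. Of the 7 theca and luteal markers 4 were higher in ES at an unadjusted p under 0.05 (9.5% of all loci), and 5 without ES3 (8.11% of all loci). Their median log2 difference was 1.54 (1.32 without ES3). INSL3, in the same list, went the other way, with medians of 42.1 CPM in ES and 94.7 CPM in NES. Its log2 difference was -1.01 (edgeR adjusted p = 0.495), and -0.75 without ES3. STAR, the cholesterol carrier of steroid synthesis, was called without ES3 (log2 3.13, adjusted p = 0.0455) and not with it (2.88, adjusted p = 0.0843). The sums of the list had medians of 1389 CPM in ES and 610 CPM in NES. PTGFR, the prostaglandin F receptor, ran from 61.1 to 181.5 CPM in ES and from 14.1 to 55.9 CPM in NES, with no overlap (log2 1.54, adjusted p = 0.0564). All 8 endothelial markers had positive differences, and 1 had an unadjusted p under 0.05 (9.5% of all loci). Their sums overlapped between the groups (632 to 972 in ES against 432 to 996 CPM in NES). The epithelial sum was 248 CPM in ES6 while the other 11 libraries reached at most 18.3 CPM. The part of these cells in the class I values was not tested; B2M, the class I block, NLRC5, TAP1, PSMB8 and PSMB9 had log2 differences of 0.54, 0.65, 0.79, 0.49, 0.41 and 0.42 with ES3 and ES6 both left out.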

How the data were processed

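Per the labels' protocols, Trizol-extracted total RNA lost its ribosomal RNA and went into stranded dUTP libraries. Build Sscrofa11.1 and the tools HISAT2, TopHat, cutadapt and FastQC are listed in the submitters' processing notes. Which program counted reads, and on which annotation, is not given in the sources used here. Per the file headers, each locus has both a count and an FPKM from the authors in each library. Groups came from the titles, 6 libraries each, with totals of 58140547 to 68961955 counts. No text in the sources says that a title number marks a litter.

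The whole table was fitted with edgeR 4.0.16 (quasi-likelihood, TMM factors, group as the only term). The filter, a mean FPKM of 0.5 or more, left 20421 loci. P-values were Benjamini-Hochberg adjusted over these loci and called under 0.05. The SE is the log2 difference divided by the square root of F. Members, lists and the naming rule were chosen with earlier results of these data known. All 18 members were named. Values by library went to members with an unadjusted p under 0.05, the largest differences of each role, CIITA, NLRC5, CD74, B2M and the MHC genes of highest FPKM; up to 3 genes of smallest p stood for each pathway list. The values of 1 list gene are not reported here. List genes were matched by table name, Ensembl identifier or a RefSeq gene of Sscrofa11.1 with a reciprocal overlap of at least 0.5.

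The 3 tools, edgeR, DESeq2 and limma, were tested on simulated counts before use. Of 50 loci changed 1.5-fold they recovered 5, 11 and 3, and of 50 changed 2-fold 18, 29 and 17. At 4-fold the numbers were 45, 49 and 48. False calls were 1, 42 and 0. At folds of 2 or less, a missing call by edgeR thus does not show that a locus is unchanged. The simulated counts held no outlying library such as ES3, and limma was run there on log2(CPM + 0.5) and not on FPKM. Alternatives were DESeq2 1.42.0, limma 3.58.1 on log2(FPKM + 0.1, 0.5 or 1), other filters, other or summed rows per symbol, the title number as a block and libraries left out. R 4.3.3, Python 3.11.15 and matplotlib 3.10.9 were used. No sequence was printed, and PSME2 was left out because 2 overlapping loci could hold it.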

Additional observations from a re-analysis of the deposited data

Results flagged for a closer look

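In groups of 6 libraries a library stands far from the others where its gap to the next, over the group's range, exceeds Dixon's 95% critical value. Chance gives this in about 1 in 20 groups when values are normally distributed and groups independent. The loci here share the same 12 libraries, so that rate is only a guide. Such a gap was present in 18 of 64 groups, 13 times for ES3. All values are CPM. In ES3 these were CIITA at 92.1, SLA-DMA at 37.6, SLA-DMB at 59.2, SLA-DOA at 10.9, SLA-DQB1 at 96.3, SLA-DRA at 122.9, SLA-DRB1 at 150.5, SLA-DQA at 115.0, the SLA class I block at 894.1, CD74 with RPS14 at 508.8, PSMB10 with CTRL at 17.2, ARNT with CTSS at 469.4 and IFI30 with MAST3 at 207.6. NES2 stood out in NES for SLA-DQB1 (44.5) and SLA-DRA (45.1). NES1 stood out for CANX (220.5, the others at most 165.8) and PDIA3 (138.4, the others at most 95.6). ES2 stood out low for ERAP1 (13.2).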

How the results depend on the processing

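Of 394 alternative values for the 18 members, 381 kept their direction and their side of the threshold, and 13 members kept their direction under each of up to 22 alternatives. DESeq2 called B2M (adjusted p = 0.0064), NLRC5 (adjusted p = 0.00229) and the SLA class I block (adjusted p = 0.0271), so its counts were 1 class I member and 1 regulator, beside 0 by edgeR. Over all alternatives the adjusted p ran from 0.0064 to 0.205 for B2M and from 0.00229 to 0.140 for NLRC5. Over all loci edgeR called 31 higher and 162 lower. DESeq2 called 465 and 600, limma 17 to 20 and 304 to 317 (18 and 304, 17 and 313, and 20 and 317 with pseudocounts of 0.1, 0.5 and 1), and the unfiltered fit 3 and 25. Without ES3 and ES6 the counts were 1 and 0. With 1 library left out they ran from 0 to 70 higher and from 0 to 345 lower, the cause was not tested, and no member was called in these fits. With the title number as a replicate block edgeR called 0 higher and 0 lower. Same-numbered libraries correlated at -0.028 to 0.243, with 2 of 6 over 0.1. These 2, numbers 1 and 5, were also each other's best match. Correlation cannot settle whether the numbers mark sisters, and the labels do not say so. The numbers were therefore not used as pairs in the main fit, which leaves the pairing of sisters out.

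The regulator median of 0.82 was 0.45 and 0.39 with limma on log2(FPKM + 0.5) and log2(FPKM + 1), 0.37 without ES3 and ES6, and 0.25 to 0.94 with 1 library left out. The other medians moved as well. That of class I (0.64), the midpoint of B2M and the row named SLA-5, was 0.38 to 0.40 with limma and 0.065 without ES3 and ES6. That of class II (1.31) was 0.59 to 0.71 with limma, 0.73 with the replicate block, 1.11 at a mean FPKM of at least 1 and 0.32 without ES3 and ES6. That of processing (0.24) was 0.063 to 0.11 with limma and 0.11 without ES3 and ES6. Behind the class I value of 0.065 were 0.54 for B2M and -0.41 for the row named SLA-5, beside 0.65 for the SLA class I block. Signs turned for ERAP1 with limma (-0.042, -0.034 and -0.028), for the row named SLA-5 without ES3 and ES6 (-0.41), for TAPBP's joined locus with limma (-0.054, -0.051 and -0.049) and without ES3 and ES6 (-0.021), and for IFI30's joined locus with limma (-0.034, -0.028 and -0.022) and without ES3 and ES6 (-0.14). With 1 library left out the ranges were -0.14 to 0.063 for CANX, -0.30 to 0.022 for CD74, -0.16 to 0.11 for PDIA3, -0.016 to 0.11 for TAPBP's locus and -0.12 to 0.16 for IFI30's.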

Other observations

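Loci on the strand opposite to the class I genes, or in the stretch around the pseudogene SLA-4, differed widely between libraries of the same group. The minus-strand locus MSTRG.20546 (chromosome 7) ran from 0.061 CPM in NES5 to 7.18 CPM in ES6. MSTRG.20547, on the plus strand, was at 0.89 CPM in ES6 and 1.28 CPM in NES4 and at 3.23 to 11.7 CPM in the other 10 libraries. MSTRG.20543, on the minus strand, was at 0.76 CPM in ES4 and at most 0.017 CPM elsewhere. These values were chosen after they were seen, and SLA alleles of the animals are not analysed here.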
